A study of Mus musculus with 2 samples.

Results

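The transcripts described here come from 40 genes of mitosis and of the G2/M stretch of the cell cycle, and were counted in droplet single-cell RNA-seq that the study describes as splenocytes at 8 days post infection (dpi) with the chronic virus LCMV-cl13. The 40 genes were chosen by name, as genes used from late S phase to cell separation, and all 40 of the 32285 genes in the count tables had counts in both genotypes. PEP-WT mice carried the wild type *Ptpn22* allele and PEP-619WW mice the pro autoimmune *Ptpn22* allele, an arginine to tryptophan change made with CRISPR/Cas9 in C57BL/6 mice. By that description each genotype was 1 pool of 4 to 5 mice matched for age and sex, sorted for live CD45+ cells, and the ages of the pooled mice are not in the labels. Both pools are described as infected, and no uninfected library was analysed here. Because the pool was the unit that was sequenced, there was 1 sample per genotype and no replicate, and no difference between genotypes could be tested. Intervals below are 95% intervals that cover counting error only. The spread between mice was not measured.

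The 2 deposits per genotype, called run 1 and run 2, were kept apart and never used as replicates. Run 1 held 14821 barcodes for PEP-WT and 8576 for PEP-619WW, with 77916082 and 56745578 UMIs (unique molecular identifiers, each standing for 1 captured transcript). Run 2 held 9539 and 11029 barcodes with 70500076 and 55504449 UMIs. The deposited sample labels also name liver, the Jurkat cell line and cells infiltrating a tumor, which the text on the design does not. Run 2 held 256 PEP-WT barcodes and 27 PEP-619WW barcodes with 3 or more of 6 melanocyte genes, and run 1 held 0 of either. Run 2 also held very few T cell, B cell and plasma cell barcodes in PEP-WT and no erythroid barcodes, so run 1 carries the description and run 2 stands beside it where it had enough barcodes. How the runs relate is not stated in the sources used here. The cell numbers given in the methods of the study equal the barcodes of the second run in both genotypes, so whether the described spleen design covers the first run as well cannot be told from them. Levels are given as CPM, the UMIs of a gene among each 1000000 UMIs of the same barcodes. *Ptpn22* itself was at 76.7 CPM in PEP-WT and 94.7 in PEP-619WW of run 1, and at 19.4 and 67.2 in run 2. A count of transcripts cannot check such a change, so the genotypes rest on the labels. Between 19 and 49 barcode sequences occurred in both libraries of a pair.

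The barcodes were set apart by 6 gates on counted genes, and a barcode could fall in more than 1. The CD8 T gate asked for a UMI of *Cd3e* and of *Cd8b1* and held 1439 PEP-WT and 953 PEP-619WW barcodes of run 1. The CD4 T gate (*Cd3e* and *Cd4*) held 361 and 261, and the B gate (*Cd79a* and *Ms4a1*) held 6937 and 3144. The plasma gate (5 or more UMIs of *Mzb1*, a chaperone of antibody assembly) held 2361 and 1893. The erythroid gate (2 or more UMIs of *Car1* and *Ermap* together) held 373 and 168, and the Lyz2 gate (5 or more UMIs of *Lyz2*, the lysozyme of myeloid cells) held 1600 and 1236. Markers that the gates did not use were set beside mature neutrophils, described below, as a background. Those neutrophils were taken from outside the CD8 T, CD4 T, B and plasma gates. Low shares of *Cd3d*, *Cd79b* and *Jchain* in them were therefore partly set by that choice. *Cd3d* had a UMI in 97.8% and 97.4% of CD8 T barcodes, *Cd79b* in 96.9% and 97.2% of B barcodes, *Jchain* in 72.2% and 86.2% of plasma barcodes, *Klf1* in 67.8% and 60.1% of erythroid barcodes and *Ly6c2* in 93.1% and 92.2% of Lyz2 barcodes. In the neutrophils *Cd3d* had a UMI in 6.82% and 5.47%, *Cd79b* in 5.68% and 11.4%, *Klf1* in 0.852% and 0.498% and *Jchain* in 21.6% and 31.3%, but *Ly6c2* in 77.0% and 76.1%. *Ly6c2* was also found in 89.8% and 94.4% of CD8 T barcodes and *Cd79b* in 96.4% and 91.3% of plasma barcodes, so neither sets its gate apart from all others. Not all defining genes were common: *Hba-a1*, a hemoglobin chain, had a UMI in 62.5% and 62.5% of erythroid barcodes and *Alas2*, of heme synthesis, in 31.6% and 20.2%. The Lyz2 gate held *Csf1r*, of monocytes, in 55.4% and 44.5% of barcodes and *S100a8*, of neutrophils, in 59.0% and 78.9%. Many barcodes carried more than 1 identity, from 25.2% of the B gate to 67.6% of the plasma gate in PEP-WT and from 31.4% to 57.9% in PEP-619WW, and values for barcodes of exactly 1 gate are given below for that reason.

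A dividing cell copies its DNA in S phase and then makes a burst of proteins that it needs to condense, align and pull apart the chromosomes. Cyclins B1 and B2 switch on the kinase Cdk1, Aurora and Polo kinases build the spindle, kinetochore proteins hold chromosomes to it, a checkpoint delays separation until every chromosome is attached, and the anaphase-promoting complex then has the cyclins destroyed. The transcripts of these proteins rise together before mitosis and are cleared after it, which makes their sum a widely used readout of dividing cells. In the spleen, T cells and B cells that have met antigen divide, plasmablasts divide before they settle as plasma cells, and the mouse spleen also makes red cells and myeloid cells from dividing precursors.

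Members share promoter letters. The cell cycle genes homology region, or CHR, here searched as TTTGAA or TTCGAA on both strands, is bound by complexes that hold late cell cycle genes down in resting cells, and the CCAAT box, searched as CCAAT on both strands, is bound by NF-Y. RefSeq promoters of build GRCm38.p6, 300 bases long with 250 before and 50 after the start, matched 34 of the 40 members by symbol, with 35 promoters because *Ect2* had more than 1. A CHR stood in 28 of the 35 (80%) and in 19.2% of all 32851 promoters of the same length. It stood within the 100 bases around the start in 74.3% of the members' promoters and 5.31% of all. A CCAAT box stood in 77.1% against 37.4%, and both motifs in 68.6% against 7.52%. The windows printed here run from 120 bases before the start to 30 after it, 5′ to 3′ on the gene's strand, with CHR and CCAAT letters in capitals. They were picked as promoters of genes the results name: 6 hold the motifs, *Cks2* holds only CCAAT boxes and *Birc5* holds neither. In the *Cdca8* window the last CHR and the last CCAAT box overlap. A match of letters is a description, not a measured site.

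Cdk1, chr10:69352883-69353032, minus strand: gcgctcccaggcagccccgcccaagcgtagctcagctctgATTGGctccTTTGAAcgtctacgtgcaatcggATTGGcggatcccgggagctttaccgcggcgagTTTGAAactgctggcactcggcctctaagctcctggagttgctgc
Ccnb2, chr9:70421525-70421674, minus strand: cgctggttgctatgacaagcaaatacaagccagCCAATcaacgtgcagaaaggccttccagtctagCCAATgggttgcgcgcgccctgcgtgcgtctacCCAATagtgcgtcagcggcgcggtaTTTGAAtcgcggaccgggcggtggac
Ube2c, chr2:164769809-164769958, plus strand: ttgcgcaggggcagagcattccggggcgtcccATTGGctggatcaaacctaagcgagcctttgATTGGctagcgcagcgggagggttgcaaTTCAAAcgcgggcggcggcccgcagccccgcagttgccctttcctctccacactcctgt
Cdca8, chr4:124936888-124937037, minus strand: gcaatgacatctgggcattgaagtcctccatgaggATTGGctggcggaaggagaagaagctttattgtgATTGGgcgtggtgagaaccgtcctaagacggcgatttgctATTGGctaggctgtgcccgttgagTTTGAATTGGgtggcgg
Bub1, chr2:127831830-127831979, minus strand: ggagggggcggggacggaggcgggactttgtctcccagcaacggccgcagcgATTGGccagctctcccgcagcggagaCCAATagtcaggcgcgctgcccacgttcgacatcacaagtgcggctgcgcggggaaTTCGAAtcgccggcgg
Cenpa, chr5:30666766-30666915, plus strand: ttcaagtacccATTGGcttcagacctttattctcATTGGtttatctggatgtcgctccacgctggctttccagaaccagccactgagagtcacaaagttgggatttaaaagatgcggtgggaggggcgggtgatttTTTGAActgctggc
Cks2, chr13:51645112-51645261, plus strand: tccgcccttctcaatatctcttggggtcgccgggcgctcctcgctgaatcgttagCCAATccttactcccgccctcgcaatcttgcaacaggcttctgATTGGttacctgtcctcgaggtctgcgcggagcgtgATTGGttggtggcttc
Birc5, chr11:117849117-117849266, plus strand: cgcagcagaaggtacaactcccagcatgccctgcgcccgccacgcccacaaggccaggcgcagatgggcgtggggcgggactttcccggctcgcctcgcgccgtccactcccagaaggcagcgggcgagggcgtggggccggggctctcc

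**Figure D1:**
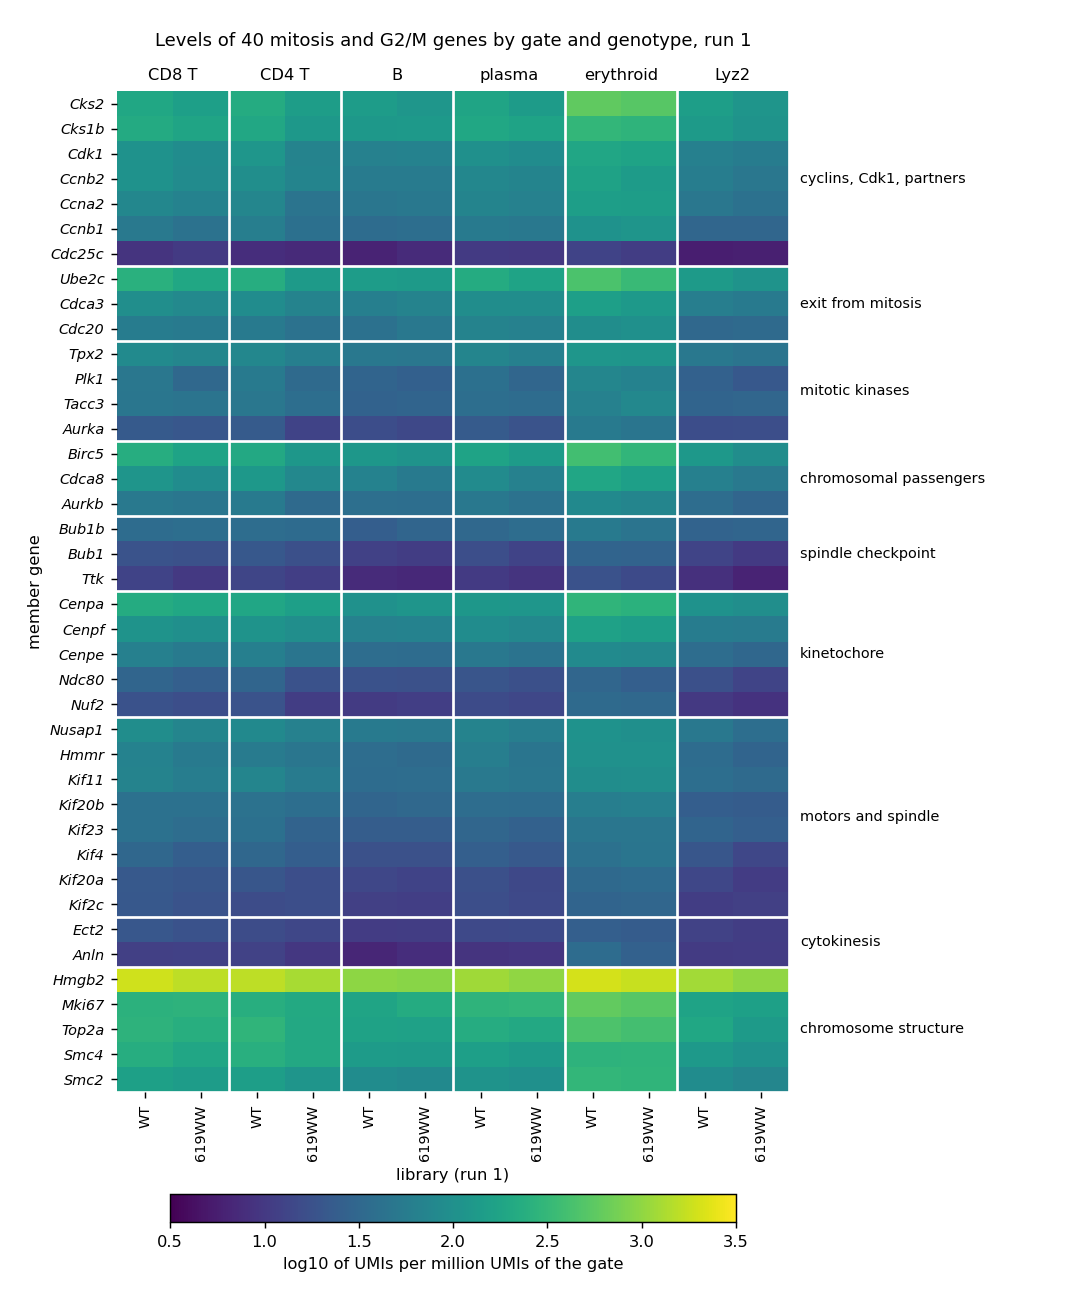
Levels of the 40 members (rows, by role) in the 6 gates of PEP-WT and PEP-619WW in run 1 (columns), drawn as the log10 of CPM. The erythroid columns are the brightest for nearly all members, and *Hmgb2* is the highest row in each gate.

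The sum of the 40 members was highest in the erythroid gate and lowest in the B and Lyz2 gates, in both genotypes. Erythroid barcodes held 8168 CPM of member transcripts (interval 8091 to 8246) in PEP-WT and 7314 (7220 to 7410) in PEP-619WW. CD8 T barcodes followed, with 5563 (5524 to 5603) and 4715 (4677 to 4753). CD4 T barcodes held 5152 (5074 to 5229) and 3861 (3789 to 3935), and plasma barcodes 4195 (4172 to 4219) and 3694 (3671 to 3716). The counting intervals of these neighbours were apart, but counting error is the only error they hold. Lyz2 barcodes held 3400 (3371 to 3429) and 2849 (2820 to 2878), and B barcodes 3167 (3149 to 3186) and 3123 (3100 to 3147). Lyz2 was above B in PEP-WT and below it in PEP-619WW, so these neighbours had no shared order in the whole gates. In barcodes of exactly 1 gate Lyz2 was above B in both genotypes, at 2543 and 2182 against 880 and 905.

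A background level came from mature neutrophils, because such cells no longer divide. They were taken as barcodes with 5 or more UMIs of *S100a8*, a UMI of *Cxcr2* and none of *Camp* or *Ltf*. Barcodes of the CD8 T, CD4 T, B and plasma gates were left out, and those of the Lyz2 gate were not. The neutrophils held 2305 CPM of member transcripts (2221 to 2391) in PEP-WT and 2010 (1906 to 2118) in PEP-619WW. *Hmgb2*, a chromatin protein that resting cells also make, gave 52.8% and 63.3% of those UMIs, and without it the neutrophil level was 1088 and 737. *Hmgb2* gave 24.5% to 35.5% of the member UMIs in the 6 gates. It stood at 1216 CPM in neutrophils of PEP-WT and 1273 of PEP-619WW, while the B gate held 985 and 930, the plasma gate 1173 and 999 and the Lyz2 gate 1207 and 1010, so *Hmgb2* in those gates was at or below the background. *Cks2* was near or below the background in all gates but the erythroid one. It was at 221 CPM (196 to 249) in PEP-WT neutrophils, with 146 in B, 153 in Lyz2, 180 in plasma, 196 in CD8 T and 222 in CD4 T barcodes. In PEP-619WW neutrophils it was at 131 (106 to 161), with 118 in B and 116 in Lyz2. The PEP-619WW levels in plasma, CD8 T and CD4 T barcodes, given in the next paragraph, were above 131 but inside its interval.

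Among the partners of Cdk1, *Ccnb1*, cyclin B1, was at 51.7, 61.1, 36.2, 53.5, 107 and 30.8 CPM in the CD8 T, CD4 T, B, plasma, erythroid and Lyz2 gates of PEP-WT, and at 43.2, 40.5, 38.1, 50.7, 115 and 31.2 in PEP-619WW. *Ccnb2*, cyclin B2, was at 107, 96.2, 55.4, 76.5, 171 and 58.5 in PEP-WT and at 88.9, 70.9, 56.6, 72.3, 140 and 48.8 in PEP-619WW. Both cyclins were highest in erythroid barcodes. *Cks2*, a small subunit that rides on cyclin-dependent kinases, was at 196, 222, 146, 180, 584 and 153 in PEP-WT and at 156, 148, 118, 142, 530 and 116 in PEP-619WW. *Cks1b*, its relative, was at 217, 199, 127, 193, 306 and 137 in PEP-WT and at 181, 125, 134, 172, 281 and 110 in PEP-619WW. The erythroid gate stood further above the others for *Cks2* than for *Cks1b*.

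Of the genes that drive exit from mitosis, *Cdc20*, an activator of the anaphase-promoting complex, was at 57.2, 54.1, 42.1, 68.6, 93.7 and 32.3 CPM in the same gate order in PEP-WT and at 54.3, 42.6, 50.2, 65.9, 102 and 34.6 in PEP-619WW. *Ube2c*, the ubiquitin-conjugating enzyme of that complex, was at 252, 236, 144, 222, 448 and 138 in PEP-WT and at 191, 138, 136, 174, 337 and 109 in PEP-619WW. *Ube2c* was lower in PEP-619WW in all 6 gates, and *Cdc20* was lower in the CD8 T, CD4 T and plasma gates and higher in the other 3.

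Among the mitotic kinases and their partners, *Plk1* was at 48.4, 53.8, 29.2, 41.0, 74.8 and 27.3 CPM in PEP-WT and at 32.4, 34.7, 26.2, 30.7, 68.5 and 21.0 in PEP-619WW, lower in PEP-619WW in every gate. *Tpx2*, which switches on Aurora A at the spindle, was at 86.2, 78.0, 49.8, 72.5, 120 and 50.1 in PEP-WT and at 74.3, 61.6, 48.7, 63.8, 116 and 45.0 in PEP-619WW. *Birc5*, the survivin subunit of the chromosomal passenger complex, was at 235, 205, 122, 175, 394 and 127 in PEP-WT and at 173, 121, 110, 140, 299.7 and 94.4 in PEP-619WW. *Plk1*, *Tpx2* and *Birc5* all had their highest level in erythroid barcodes. *Bub1b*, the checkpoint protein BubR1, was at 36.8, 36.9, 24.7, 32.8, 52.5 and 28.7 in PEP-WT and at 38.1, 35.1, 30.1, 36.9, 45.2 and 29.7 in PEP-619WW. Unlike *Plk1* and *Birc5*, *Bub1b* was higher in PEP-619WW in the CD8 T, B, plasma and Lyz2 gates, with counting intervals of the ratio above 1 in B (1.22, 1.10 to 1.35) and plasma (1.12, 1.03 to 1.23).

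*Cenpa*, the histone that marks centromeres, was at 221, 189, 104, 122, 294 and 107 CPM in PEP-WT and at 192, 158, 115, 118, 258 and 95.4 in PEP-619WW. *Nusap1*, which bundles spindle microtubules near chromosomes, was at 92.9, 85.0, 52.9, 70.3, 108 and 49.6 in PEP-WT and at 73.2, 66.3, 51.1, 60.5, 99.6 and 37.9 in PEP-619WW. *Ect2*, which switches on the furrow of cytokinesis, was at 20.5, 15.7, 10.8, 14.4, 25.5 and 12.4 in PEP-WT and at 18.2, 13.6, 11.1, 14.7, 23.7 and 11.0 in PEP-619WW. *Nusap1* was lower in PEP-619WW in all 6 gates, and *Cenpa* in all but the B gate. The *Ect2* ratios had intervals that hold 1 in all 6 gates.

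*Mki67*, the coat protein of mitotic chromosomes known as Ki-67, was at 266, 241, 178, 279, 597 and 173 in PEP-WT and at 278, 208, 219, 296, 527 and 160 in PEP-619WW. *Top2a*, which untangles sister DNA strands, was at 276, 288, 167, 228, 459 and 194 in PEP-WT and at 241, 207, 166, 203, 401 and 136 in PEP-619WW. *Mki67* was higher in PEP-619WW in the CD8 T, B and plasma gates, whereas *Top2a* was higher in PEP-619WW in none.

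Set against the CD8 T gate of the same library, erythroid barcodes did not raise all members alike. The members' median ratio was 1.54 in PEP-WT and 1.66 in PEP-619WW, and 38 and 36 of the 40 members had a counting interval above 1. *Cks2* stood 2.98 times the CD8 T level in PEP-WT, a level not above that of neutrophils there, and 3.40 times in PEP-619WW, and *Anln*, a scaffold of the contractile ring, 3.04 and 2.27 times. *Aurka*, the kinase of spindle poles, stood at 2.41 and 2.26 times, and *Mki67* at 2.24 and 1.90 times. *Cks2*, *Anln* and *Aurka* were among the 4 highest in both genotypes. At the other end, *Ndc80*, which joins kinetochores to microtubules, was at 1.03 (0.851 to 1.24) and 0.987 (0.763 to 1.27) times the CD8 T level, and *Hmgb2* at 1.06 and 1.12 times. In the B gate, all 40 members were below the CD8 T level, with a median ratio of 0.587 in PEP-WT and 0.690 in PEP-619WW. In the Lyz2 gate all 40 were also below it, with medians of 0.603 and 0.588. No share of all genes that differ between these gates stands beside these counts. They are therefore not read as particular to the members.

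**Figure D2:**
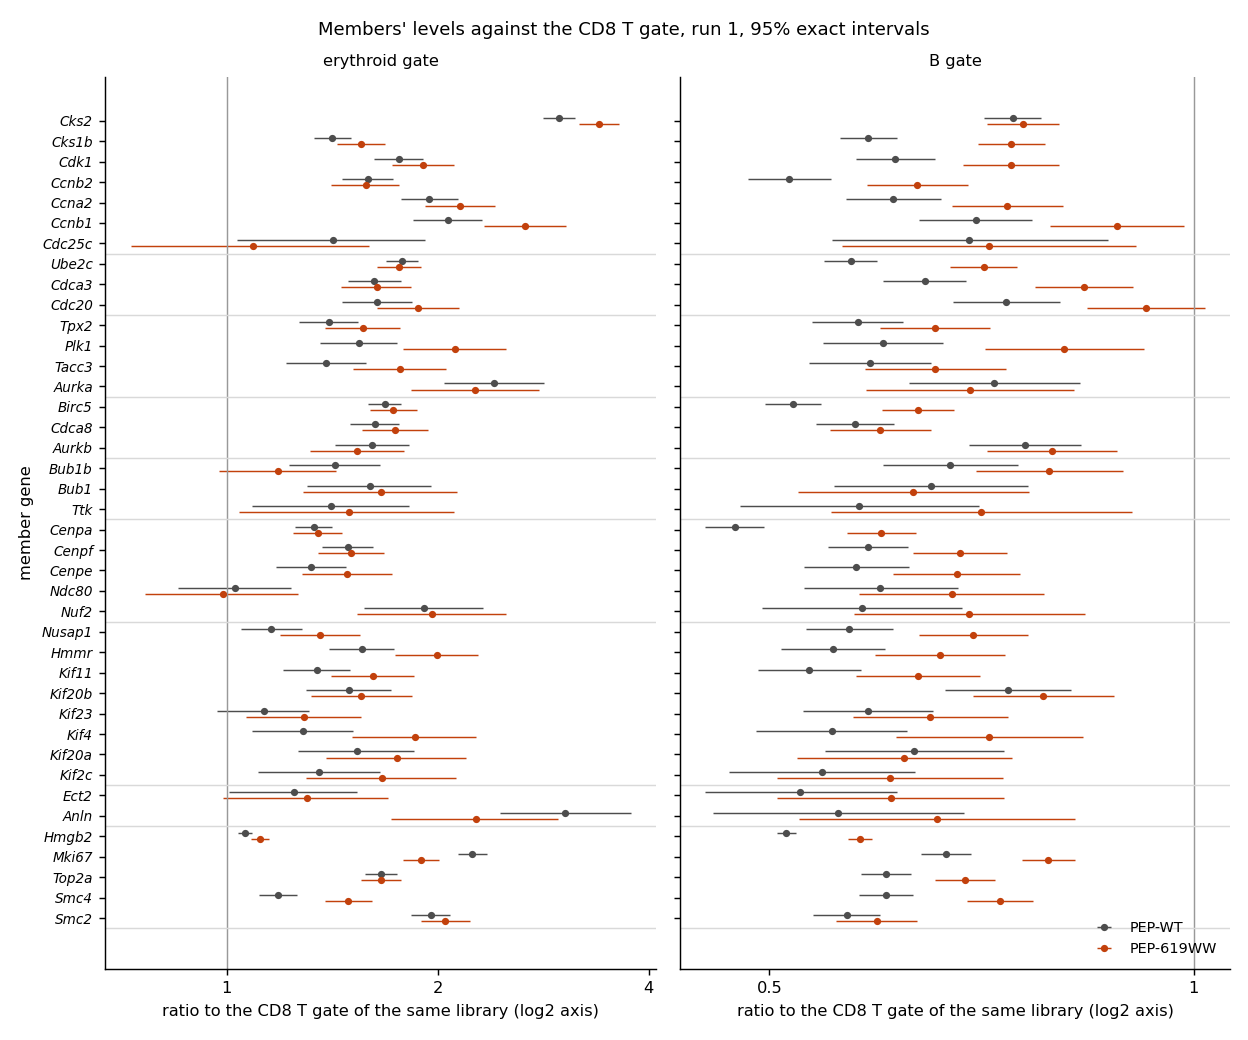
Each point is 1 member's level in the erythroid or B gate divided by its level in the CD8 T gate of the same library in run 1, on a log axis. Erythroid points lie above 1 in both genotypes, except *Ndc80* in PEP-619WW at 0.987, and the B points of all 40 members lie below 1.

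How many barcodes carried the transcripts was counted as the share of barcodes with a UMI of 3 or more members. As counted, it was 96.0% and 96.4% in the erythroid gate of PEP-WT and PEP-619WW, 65.1% (62.6 to 67.6) and 75.2% (72.4 to 78.0) in CD8 T, 57.3% and 69.7% in CD4 T, 63.7% and 70.2% in plasma, 50.1% and 53.1% in Lyz2, and 26.5% and 36.6% in B. In mature neutrophils it was 24.1% and 20.4%. Depth differed between genotypes: the median CD8 T barcode held 6038 UMIs in PEP-WT and 8660 in PEP-619WW, the median B barcode 2837 and 3496, and the median neutrophil 2188 and 2865. In CD8 T and CD4 T barcodes the share was higher in PEP-619WW while the CPM were lower, so no order of the genotypes is read from it.

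Each barcode was therefore also thinned at random to 1000 UMIs. The CD8 T share was then 31.2% (28.9 to 33.7) in PEP-WT and 30.6% (27.6 to 33.6) in PEP-619WW, after leaving out 2 and 11 shallower barcodes. The difference of 10.1 percentage points between genotypes as counted became -0.672 points. Erythroid shares were 82.5% (78.1 to 86.3) and 72.8% (65.1 to 79.6), CD4 T shares 23.2% (18.9 to 27.9) and 15.7% (11.5 to 20.7), plasma shares 29.9% and 30.4%, and Lyz2 shares 18.1% and 17.8%. B shares were 9.92% (9.22 to 10.7) and 12.8% (11.6 to 14.0), and neutrophil shares 7.99% and 5.15%. Thinned to 2000 UMIs instead, the erythroid shares were 92.9% and 92.0%, near the most this share can reach, and 90.4% and 86.1% without *Hmgb2*. Of these erythroid barcodes 45.7% (40.03 to 51.4) and 35.8% (27.8 to 44.4) held 10 to 19 members. The plasma shares were 37.4% and 41.6%. Of the neutrophils thinned to 2000 UMIs, 8 of 199 in PEP-WT and 3 of 162 in PEP-619WW held 10 to 19 members. This background was thus not free of barcodes with many members. After thinning to 1000 UMIs and keeping barcodes of exactly 1 gate, B barcodes were at 3.06% (2.60 to 3.57) and 4.53% (3.68 to 5.52), against 7.99% (5.33 to 11.4) and 5.15% (2.50 to 9.28) in neutrophils. The PEP-WT share is read as background, and the PEP-619WW share lay inside the neutrophil interval, so it is not told apart from background either. Without *Hmgb2* the B shares were 1.82% and 3.25% (2.53 to 4.10) and the neutrophil shares 4.14% and 1.03% (0.125 to 3.67), and in PEP-619WW these intervals overlapped as well. CD8 T barcodes of exactly 1 gate were above the neutrophil shares, at 26.8% (24.1 to 29.6) and 26.5% (23.1 to 30.1), as were erythroid barcodes at 86.7% and 82.8% and plasma barcodes at 25.8% and 28.1%. CD4 T barcodes of exactly 1 gate, at 15.2% (10.9 to 20.4) and 12.3% (7.87 to 18.02), and Lyz2 barcodes, at 11.4% (9.53 to 13.4) and 11.1% (9.02 to 13.6), had intervals that overlapped those of the neutrophils. Without *Hmgb2* the neutrophil intervals were 2.28 to 6.85 and 0.125 to 3.67. The CD4 T shares, 11.8% (8.00 to 16.6) and 10.1% (6.07 to 15.4), were then apart from them in both genotypes. The Lyz2 shares, 7.92% (6.38 to 9.70) and 8.58% (6.71 to 10.8), were apart in PEP-619WW only.

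**Figure D3:**
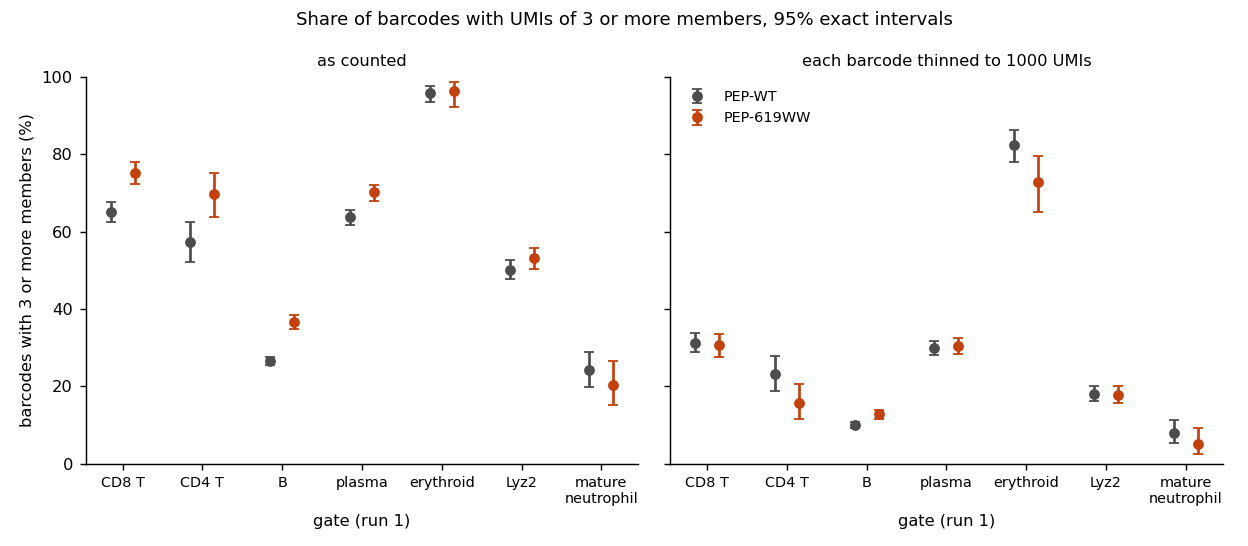
Percent of barcodes with a UMI of 3 or more members in each gate and in mature neutrophils of run 1, as counted and after thinning to 1000 UMIs, for both genotypes with exact binomial 95% intervals. The CD8 T points differ between genotypes as counted and are at 31.2% and 30.6% after thinning.

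Single barcodes of the erythroid gate also held more different members. After thinning to 2000 UMIs, 10 to 19 members were found in 45.7% of erythroid barcodes of PEP-WT and 35.8% of PEP-619WW, against 14.0% and 11.0% of CD8 T barcodes. No member was found in 14.0% and 12.4% of CD8 T barcodes.

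The transcripts were concentrated in few barcodes, most of all in the B gate and least in the erythroid gate. The 10% of barcodes with the most member UMIs held 88.8% of the B gate's member UMIs in PEP-WT and 85.5% in PEP-619WW, along with 37.3% and 38.1% of all its UMIs. In the CD8 T gate the same slice held 53.0% and 56.6% of the member UMIs, and in the erythroid gate 33.9% and 43.1%. In the B gate, the share that also passed the plasma gate was 20.5% for PEP-WT and 26.4% for PEP-619WW, and these 1422 and 831 barcodes held 76.6% and 82.8% of its member UMIs. Their level was 4910 and 4355 CPM. B barcodes of exactly 1 gate held 880 and 905, so the sum over the B gate came mostly from barcodes that were in the plasma gate as well. No doublet caller was run, so single cells that pass both gates and droplets with more than 1 cell cannot be told apart here.

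Barcodes with 3 or more members after thinning were spread over several gates. Of 2144 such PEP-WT barcodes and 1424 of PEP-619WW, 32.9% and 39.4% were in the plasma gate, 31.7% and 27.6% in the B gate, 20.9% and 20.2% in CD8 T, 13.6% and 8.08% in erythroid, 13.2% and 14.7% in Lyz2 and 3.87% and 2.88% in CD4 T. A further 21.7% and 24.0% were in no gate, and 31.5% and 29.1% were in more than 1. Erythroid barcodes made up 2.56% and 2.13% of all thinned barcodes, and so were several times more common among those with 3 or more members. Plasma barcodes were 17.0% (PEP-WT) and 24.9% (PEP-619WW) of all thinned barcodes, and CD8 T barcodes 10.4% and 12.7%. B barcodes were 49.4% and 41.6% of all, and so were less common among those with 3 or more members. Lyz2 barcodes were 11.3% and 15.8% of all, and CD4 T barcodes 2.59% and 3.53%. Among barcodes with 3 or more members, these last gates were more common than that in PEP-WT and less common in PEP-619WW. The sort for live CD45+ cells also sets such shares.

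Within single gates, some subsets held more of the transcripts than others. These subsets were chosen after values were seen. Among CD8 T barcodes of exactly 1 gate, 651 in PEP-WT and 567 in PEP-619WW had a UMI of *Gzmb*, the granzyme of killer T cells, and held 7489 (7408 to 7570) and 5321 (5256 to 5386) CPM of member transcripts. The 367 and 86 barcodes without *Gzmb* held 2705 (2631 to 2781) and 4830 (4650 to 5015). The distance between the subsets was thus large in PEP-WT and small in PEP-619WW of run 1, where few barcodes lacked *Gzmb*. In run 2 it was large in PEP-619WW too, at 6264 CPM (6104 to 6427) in 105 barcodes with *Gzmb* and 2562 (2451 to 2676) in 188 without. The small distance was thus not shared by the runs. In the Lyz2 gate, the barcodes with 5 or more UMIs of *Mpo*, *Elane* and *Prtn3* together, granule genes of myeloid precursors, numbered 63 and 82 and held 6819 and 4783. Their thinned share was 58.7% and 34.1%, against 8.42% and 8.44% in the other Lyz2 barcodes. These latter shares had intervals that overlapped those of the neutrophils, which were not kept out of the Lyz2 gate. The other Lyz2 barcodes held 1710 (1677 to 1744) and 1360 (1326 to 1394) CPM, below the neutrophils at 2305 and 2010, and without *Hmgb2* 885 and 576 against 1088 and 737. Their share without *Hmgb2*, 5.74% and 6.15% against 4.14% and 1.03% in neutrophils, went against these levels, so no order is read from it.

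The comparison of genotypes asks whether the transcripts were at another level with the PEP-619WW allele. The summed members were lower in PEP-619WW in the CD8 T, CD4 T, plasma, erythroid and Lyz2 gates of run 1 and nearly level in the B gate. The PEP-619WW to PEP-WT ratio was 0.750 (0.732 to 0.768) in CD4 T, 0.838 (0.827 to 0.849) in Lyz2, 0.847 (0.838 to 0.857) in CD8 T, 0.880 (0.873 to 0.888) in plasma, 0.895 (0.881 to 0.910) in erythroid and 0.986 (0.977 to 0.996) in B. The members' median log2 ratio was -0.38 in CD4 T, -0.23 in Lyz2, -0.21 in CD8 T, -0.17 in plasma, -0.12 in erythroid and -0.01 in B. Over all genes with 40 or more UMIs, between 8861 and 12214 per gate, the median lay between -0.07 and 0.02. Members with a ratio below 1 numbered 39 of 40 in CD4 T, 36 in plasma, 35 in CD8 T, 32 in Lyz2, 30 in erythroid and 22 in B. The background moved the same way, since mature neutrophils of run 1 held 2305 CPM in PEP-WT and 2010 in PEP-619WW, and 1088 and 737 without *Hmgb2*. Its part in the ratios was not tested. With 1 pool per genotype, none of these ratios has a replicate check.

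**Figure D4:**
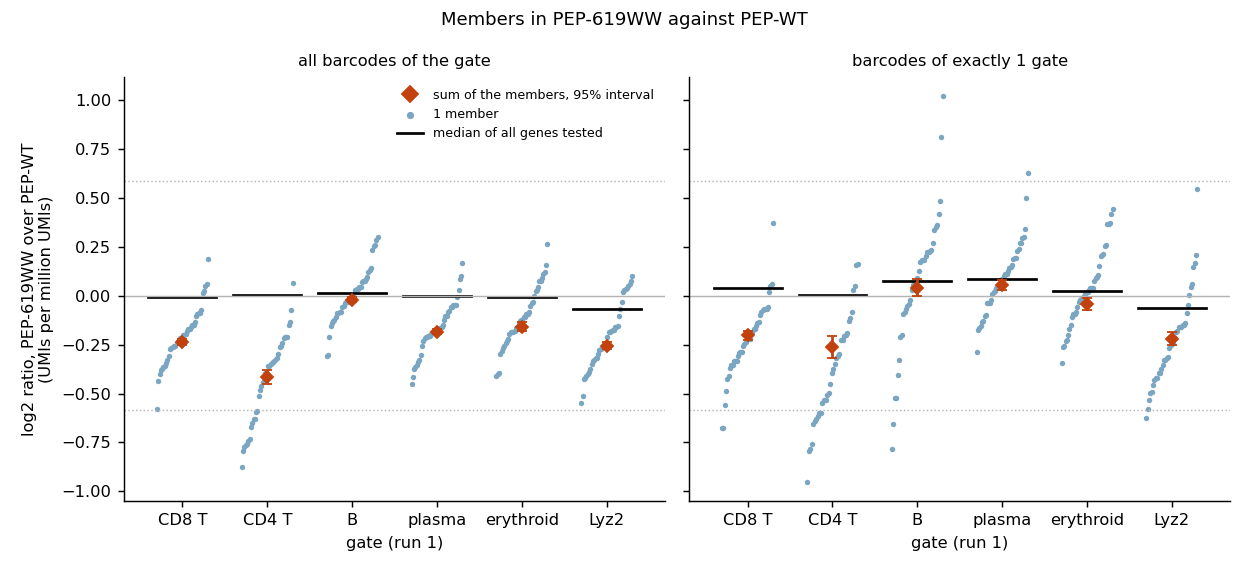
PEP-619WW to PEP-WT ratios on the log2 scale in run 1, for all barcodes of each gate (left) and for barcodes of exactly 1 gate (right), with 1 point per member, the sum with its counting interval, the median of all genes tested and dotted lines at 1.5-fold. The sums lie below 0 in 6 gates on the left, and those of B and plasma lie above 0 on the right.

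Most single members moved little. A member counted as lower or higher when it differed at least 1.5-fold, with 40 or more UMIs over both genotypes. In CD4 T barcodes 13 of 40 members were lower in PEP-619WW and 0 higher, where 7.05% of all genes tested were lower and 6.96% higher. In the other gates of run 1, 0 members were past the fold either way. All genes tested were lower in 5.18% and higher in 4.39% of cases in CD8 T, 4.22% and 5.98% in B, 4.6% and 5.0% in plasma, 6.07% and 5.44% in erythroid, and 5.65% and 4.13% in Lyz2. The 13 were *Birc5*, *Cdk1*, *Ccnb1*, *Ccna2*, *Cdca8*, *Aurka*, *Aurkb*, *Plk1*, *Cks1b*, *Cks2*, *Ube2c*, *Ndc80* and *Nuf2*. Among them *Cks2* stood at the neutrophil level in PEP-WT, and went from 222 to 148 CPM while the neutrophils went from 221 to 131. Of the roles, the chromosomal passenger group (*Aurkb*, *Birc5*, *Cdca8*), which corrects faulty attachments and guides cytokinesis, had the lowest ratio in each of the 6 gates of run 1, from 0.613 in CD4 T to 0.890 in B. The checkpoint group (*Bub1*, *Bub1b*, *Ttk*) was nearer to 1, from 0.886 in erythroid to 1.09 in B. This order was not seen in the Lyz2 gate of run 2, where the passenger group was at 0.287 and the checkpoint group at 0.313, with cytokinesis (0.221), exit from mitosis (0.260) and mitotic kinase (0.280) genes lower, nor in the thinly filled CD8 T gate of run 2, where the passenger group was at 0.528 and the genes of exit from mitosis at 0.342. In the CD4 T gate of run 2, with 12 PEP-WT barcodes, the passenger group was again the lowest, at 0.588 (0.474 to 0.737). The checkpoint group was at 0.714 (0.425 to 1.29) there. In mature neutrophils of run 1 the 3 passenger genes were also lower in PEP-619WW, with counting intervals that overlapped. *Aurkb* was at 16.1 and 4.29 CPM in them and *Birc5* at 56.3 and 41.4. Among barcodes of no gate *Aurkb* was higher in PEP-619WW, at 23.9 and 33.97, *Cdca8* lower, at 53.4 and 44.7, and *Birc5* at 96.9 and 96.4. Gates share barcodes, so the 6 are not separate checks of the role order. How far the background set that order was not tested.

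In CD8 T barcodes, the 3 members furthest from 1 were *Plk1*, the Polo kinase, at 48.4 and 32.4 CPM (ratio 0.669, interval 0.590 to 0.757), *Birc5* at a ratio of 0.739 (0.700 to 0.781) and *Ube2c* at 0.759 (0.720 to 0.799). All 3 were lower in PEP-619WW. In barcodes of only the CD8 T gate, *Plk1* was at 0.625 (0.515 to 0.756), *Ube2c* at 0.714 and *Birc5* at 0.794. *Plk1* and *Aurka* were the 2 of 40 members past 1.5-fold there, both lower, beside 3.33% of all genes lower and 5.14% higher. The summed log2 ratio of the CD8 T gate was -0.24, and -0.15 without the 5% of barcodes with the most UMIs.

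In CD4 T barcodes, *Aurka* was at 23.0 and 12.5 CPM, a ratio of 0.545 (0.355 to 0.824) that rests on 76 and 35 UMIs. *Cdk1*, the kinase that starts mitosis, was at 120 and 69.1 (0.576, 0.482 to 0.686), and *Ube2c* was at a ratio of 0.585 (0.517 to 0.662). Barcodes of only the CD4 T gate, 240 and 179 of them, kept *Cdk1* lower at 0.580 (0.421 to 0.792), while *Ube2c* was at 0.854 (0.696 to 1.05) and *Aurka* at 0.604 (0.290 to 1.21), both with intervals that hold 1. There 10 of 34 members that passed the filter were lower and 0 higher, with 8.68% of all genes lower and 8.21% higher, and 5 of the 10 were among the 13 above. The summed log2 ratio was -0.26 in those barcodes and -0.13 without the 5% of barcodes with the most UMIs, so the size of the CD4 T difference depended on barcodes with high counts.

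In the B gate the members went both ways. *Mki67* was higher in PEP-619WW (ratio 1.23, 1.19 to 1.28), and *Cdca8*, the passenger subunit Borealin, and *Cks2* were lower, at 0.809 (0.753 to 0.867) and 0.810 (0.772 to 0.849). In barcodes of only the B gate *Mki67* was at 1.02 (0.858 to 1.21), and the summed ratio was 1.03 (0.999 to 1.06). *Cdca8* and *Kif2c* were then lower past the fold and *Kif20a* and *Anln* higher, of 37 members that passed, beside 3.85% and 6.89% of all genes. The intervals of the sum and of *Mki67* both held 1 in barcodes of 1 gate, which held 880 and 905 CPM of member transcripts, below the neutrophil background.

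In plasma barcodes, *Cdca8* was at 89.2 and 65.2 CPM (0.732, 0.689 to 0.777), *Plk1* at a ratio of 0.751 and *Bub1*, a checkpoint kinase, at 0.770 (0.670 to 0.885). In the 765 and 797 barcodes of only the plasma gate, these 3 ratios were 0.916, 0.974 and 0.821, each with an interval that holds 1. The sum turned to 1.04 (1.02 to 1.06), with 2671 CPM in PEP-WT and 2774 in PEP-619WW, and *Kif20a* alone of 40 members was past the fold, higher, beside 7.05% of all genes higher and 2.81% lower. The lower level in the whole plasma gate was therefore not seen in barcodes of the plasma gate only.

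In erythroid barcodes, *Ube2c* (0.751, 0.698 to 0.808), *Anln* (0.757, 0.579 to 0.982) and *Birc5* (0.761, 0.703 to 0.822) were furthest from 1. In barcodes of only that gate, 274 and 109, they were at 0.787, 0.890 and 0.833, and the sum was 0.972 (0.952 to 0.992) with 18 of 40 members below 1 and 0 past the fold, where 6.5% of all genes were lower and 5.7% higher. In the whole gate, the summed list of 9 erythroid genes was at 26033 CPM in PEP-WT and 15519 in PEP-619WW. Its part in the members' ratio was not tested. The summed log2 ratio of this gate was -0.16, and it was -0.45 without the 5% of barcodes with the most UMIs and -0.36 below 10 UMIs of *Mt2*, so its size depended on which barcodes were kept.

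In Lyz2 barcodes, *Kif4*, a motor that binds chromosome arms, was at 20.3 and 13.9 CPM (0.684, 0.567 to 0.824), *Top2a* at a ratio of 0.701 (0.661 to 0.743) and *Birc5* at 0.743 (0.692 to 0.798). The sum in barcodes of only the Lyz2 gate was 0.858 (0.839 to 0.878), close to that of the whole gate, with *Kif4* the 1 of 39 members past the fold, lower, beside 6.63% of all genes lower and 4.83% higher. The CD8 T and CD4 T sums also stayed lower in barcodes of exactly 1 gate, at 0.869 (0.856 to 0.883) and 0.833 (0.801 to 0.866).

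Lists of cell type genes, mostly of types other than that of the gate, moved with the genotypes as well. The summed erythroid list stood at 1508 CPM in CD8 T barcodes of PEP-WT and 338 in PEP-619WW, at 2012 and 140 in CD4 T and at 3266 and 468 in B. The summed plasma cell list went the other way, at 2666 and 3902 in CD8 T and 2987 and 4755 in B. The T effector list, of the gate's own cell type, was at 3608 and 5630 in CD4 T, with 3 of 12 genes higher and 1 lower past 1.5-fold. Over all genes tested there, 6.96% were higher and 7.05% lower. A list of 10 myeloid progenitor genes, of another dividing cell type, was lower in PEP-619WW in CD4 T, at 419 and 103, with 5 of the 7 genes that passed lower and 2 higher. It was higher in CD8 T (285 and 521), B (175 and 481), plasma (124 and 386), erythroid (204 and 722) and Lyz2 (3259 and 5536) as a sum. By gene, 6 of 9 that passed were higher and 0 lower in CD8 T, 5 and 1 of 10 in B, 10 and 0 of 10 in plasma and 3 and 0 of 10 in Lyz2, but in erythroid barcodes 3 of 8 were higher and 5 lower, with a median log2 ratio of -1.86. The part of these transcripts in the members' ratios was not tested.

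Run 2 gave a larger difference in the only gate that was well filled in both genotypes. Its 6488 and 4919 Lyz2 barcodes held 2276 (2265 to 2288) and 1088 (1076 to 1099) CPM of member transcripts, a ratio of 0.478 (0.472 to 0.483). Of 40 members, 39 were below 1 and 37 were lower past 1.5-fold, beside 15.5% of all genes lower and 23.9% higher. *Cdk1* was at 65.5 and 12.5 CPM (0.191, 0.172 to 0.211), *Mki67* at 153 and 53.9, *Top2a* at 142 and 47.2 and *Birc5* at 126 and 33.1. *Hmgb2* alone was above 1, at 345 and 371 (1.07, 1.05 to 1.10). In barcodes of exactly 1 gate, the summed ratio was 0.385 (0.380 to 0.390) with all 40 members below 1, and *Hmgb2* turned to 0.890 (0.869 to 0.912). The levels there were 2270 (2258 to 2282) and 874 (864 to 885) CPM. Mature neutrophils of run 2 held 1407 (1329 to 1489) CPM of member transcripts in PEP-WT and 920 (882 to 959.8) in PEP-619WW. This background was thus lower in PEP-619WW as well, and the PEP-619WW Lyz2 level in barcodes of exactly 1 gate was not above it. Without *Hmgb2* that Lyz2 level was above it, at 568 CPM (560 to 576) against 353 (330 to 378). In PEP-WT the values without *Hmgb2* were 1927 (1916 to 1937) and 828 (768 to 891). The part of this background in the ratio was not tested. Other lists moved in the same Lyz2 barcodes of run 2: the erythroid list was at 509 and 22.2 CPM, the T effector list at 1694 and 3792 with 11 of 12 genes higher, and the CDK inhibitor and quiescence list at 859 and 1773. Their part in the ratio was not tested. PEP-WT in run 2 was also the library with most of the melanocyte-gene barcodes. Without barcodes that held a UMI of these genes, the log2 ratio was -1.01 against -1.07 with them. Barcodes with 5 or more UMIs of *Mpo*, *Elane* and *Prtn3* together numbered 11 and 3 in this gate, against 94 and 123 in run 1. The Lyz2 gates of the runs thus differed in content, and their ratios are not a check of each other. The 28 CD8 T and 12 CD4 T barcodes of PEP-WT in run 2 were few beside the 394 and 438 of PEP-619WW.

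Other genes of the cell cycle were read from lists of named genes. Between genotypes, 53 further G2/M genes were at a summed ratio of 0.888 in CD8 T, with a median log2 ratio of -0.09, with 0 higher and 1 lower past 1.5-fold. In CD4 T they were at 0.793, with a median of -0.29 and 1 higher and 7 lower of the 51 that passed. Of 41 S phase genes, which make and copy DNA, 1 was lower in CD8 T (summed ratio 0.903, median -0.13) and 4 in Lyz2 (0.780, median -0.36), and 8 of the 40 that passed in CD4 T (0.767, median -0.38). None of the S phase genes was higher in those gates. Over all genes tested, 5.18% were lower in CD8 T, 7.05% in CD4 T and 5.65% in Lyz2, so the CD8 T counts of both lists were below that share. The list of transcriptional regulators of the cycle, such as E2F and NF-Y subunits, was at 1.02 in CD8 T, 0.983 in CD4 T, 1.03 in B and 0.916 (0.885 to 0.948) in Lyz2, where 15 of 19 genes were below 1.

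These lists were also compared between barcodes with 3 or more members and the rest, in barcodes of exactly 1 gate with the classes made after thinning. In the CD8 T gate, the 272 PEP-WT barcodes with 3 or more members held other G2/M genes at 4.41 times the level of the other 744, and the 170 PEP-619WW barcodes at 3.74 times that of the other 472. Of the genes that passed the filter, 50 of 51 and 47 of 50 were higher past 1.5-fold, where 16.5% and 12.8% of all genes were. *Stmn1*, which loosens microtubules, stood at 8.34 and 10.2 times, and the tubulins *Tubb4b* and *Tuba1b* at 6.78 and 6.27 times in PEP-WT and 6.11 and 5.84 times in PEP-619WW. *H2afz*, a histone variant, stood at 3.09 and 2.37 times. S phase genes were at 3.09 and 2.40 times, with 39 of 41 and 38 of 40 higher. *Pcna*, the sliding clamp of DNA synthesis, stood at 2.79 and 2.24 times, and *Dut*, which keeps uracil out of DNA, at 3.38 and 2.58 times. *Mcm6*, of the replicative helicase, was at 1.74 and 1.56 times, and *Rpa2*, which coats single strands, was nearest to 1 of the S phase genes named, at 1.31 and 1.09 times.

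The list of CDK inhibitors and quiescence genes was at a summed 0.527 times in PEP-WT and 0.587 in PEP-619WW in the same barcodes, but its genes went both ways. Of 10 that passed, 2 were higher and 5 lower past 1.5-fold in PEP-WT, and 4 higher and 4 lower in PEP-619WW, beside 16.5% of all genes higher and 17.0% lower in PEP-WT and 12.8% and 14.5% in PEP-619WW. *Btg1*, which holds back proliferation, was at 0.300 and 0.470 times, its relative *Btg2* at 0.501 and 0.556, and *Klf2*, a factor of resting T cells, at 0.570 and 0.483. *Cdkn2d*, an inhibitor of Cdk4 and Cdk6, was among those above 1, at 1.29 and 1.60 times. The naive and memory T cell list fell to 0.39 times in PEP-WT, with 9 of 9 genes lower past the fold beside 17.0% of all genes, and to 0.52 in PEP-619WW, with 6 of 9 beside 14.5%. *Bcl2*, which protects from cell death, was at 0.341 and 0.407 times, the chromatin organizer *Satb1* at 0.422 and 0.632, and *S1pr1*, the receptor that lets T cells leave lymphoid tissue, at 0.5002 and 0.465. The list of 12 T effector genes was at a summed 0.613 times in PEP-WT, with 1 higher and 1 lower past the fold, and at 0.525 in PEP-619WW, with 0 higher and 4 lower. *Gzmb* was at 1.66 and 1.12 times, while the chemokine *Ccl5* was at 0.307 and 0.329. *Nkg7*, of cytotoxic granules, was at 0.918 and 0.806 and *S100a6* at 0.961 and 0.656. The median barcode held 8600 UMIs with 3 or more members and 4020 with fewer in PEP-WT, and the part of depth in these ratios was not tested.

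The CD4 T classes were small, with 36 PEP-WT and 22 PEP-619WW barcodes of 3 or more members. The myeloid progenitor list differed between some of these classes. In PEP-WT it was at 1797 CPM with 3 or more members and 10.9 with fewer in CD4 T, and at 988 and 17.0 in B, while in PEP-619WW it was at 18.1 and 16.7 in CD4 T and 147 and 56.1 in B. The erythroid list differed as well, at 238 with 3 or more members and 3101 with fewer in CD8 T of PEP-WT and at 174 and 3367 in CD4 T, but at 57.2 and 98.8 in CD8 T and 65.2 and 73.0 in CD4 T of PEP-619WW. The part of these lists in the ratios was not tested. With 3 or more members, other G2/M genes were at 5.59 and 4.42 times in B, 5.62 and 5.28 times in plasma, 3.56 and 4.78 times in CD4 T and 3.78 and 4.54 times in Lyz2. The erythroid gate differed in size, with 1.39 (1.34 to 1.45) and 1.33 (1.27 to 1.40) times for other G2/M genes and 1.24 and 1.11 times for S phase genes. There most barcodes held 3 or more members, so the other class was small, and its own G2/M level of 6673 and 7365 CPM lay above that of CD8 T barcodes with fewer members, at 2331 and 2587. The erythroid list was at 32709 CPM with 3 or more members and 63843 with fewer in PEP-WT, and at 28699 and 6241 in PEP-619WW, so the class with fewer members, 34 and 17 barcodes, was not alike in the 2 genotypes.

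**Figure D5:**
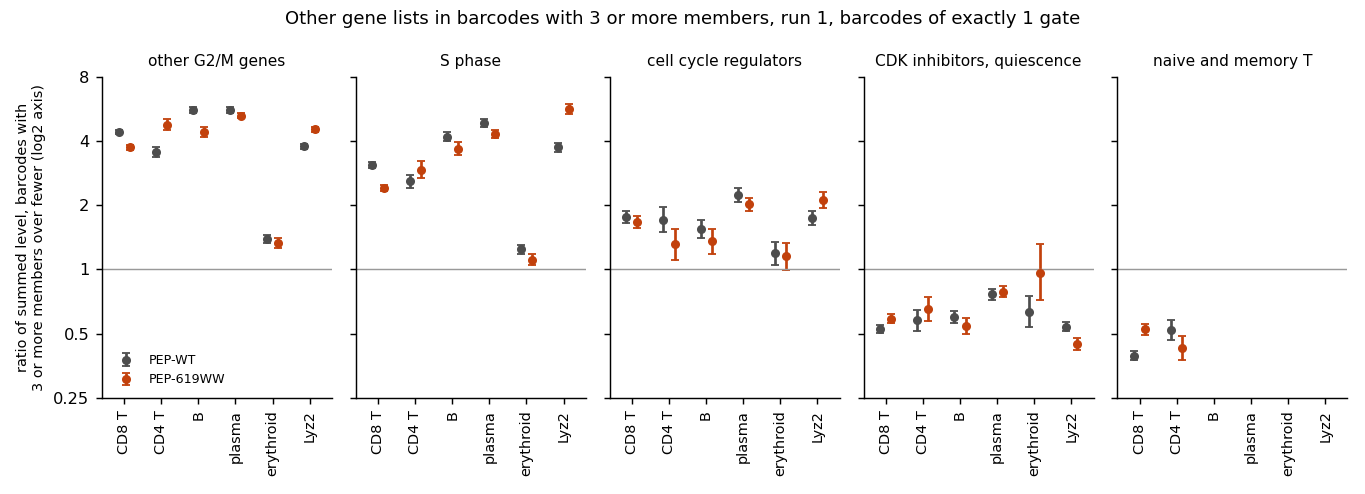
Ratio of the summed level in barcodes with 3 or more members to that in barcodes with fewer, for 5 other gene lists in barcodes of exactly 1 gate in run 1, on a log2 axis, with counting intervals (naive and memory T list in the T cell gates only). The other G2/M and S phase lists lie above 1 in each gate and nearest to 1 in the erythroid gate.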

How the data were processed

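The samples were profiled by 10x Genomics single-cell RNA-seq, with 2 deposited runs per genotype. The study describes splenocytes pooled by genotype, and which run this covers is not stated beyond the cell numbers. The authors deposited counts: whole UMIs per gene and barcode, with no normalization, and the submitters' processing notes name Cell Ranger 6.0.0. Of 32285 genes, 32158 matched a symbol. The members and lists were chosen with earlier results of these data known.

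UMIs were summed per gate and genotype and divided by all UMIs of those barcodes, then scaled to 1000000. Sums had exact Poisson intervals, ratios exact conditional binomial intervals, shares Clopper-Pearson intervals and differences of shares Newcombe intervals, at 95%. No test was run, because each genotype was 1 library. Genes with 40 UMIs over both genotypes entered counts at 1.5-fold. Counts of 3' UMIs are not per length, so levels were compared between gates and genotypes and not between genes. PCR duplicates were already collapsed to UMIs, and intervals cover counting error only.

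Named genes were, in each role group, the member with the most UMIs, with *Mki67*, *Top2a*, *Birc5*, *Ccnb1*, *Ccnb2*, *Cdc20*, *Plk1*, *Cks1b*, *Cks2* and *Hmgb2*, plus the 3 members with the largest ratio in each gate of run 1. Of the other lists, the 4 genes with the most UMIs in the CD8 T gate were named. Members and subset genes named outside this rule were chosen after their values were seen. Alternatives changed the run, gate overlap and thresholds, denominator, scaling, weighting, members, depth, barcode filters and fold. Counts for 11062 genes of the CD8 T comparison were simulated with counting error alone, which is what the intervals assume. There 95.6% of intervals held the true ratio, which followed from that setting. The simulation did not include the gathering of UMIs in few barcodes, so it cannot show how the intervals hold under it. Of 55 genes set to 0.5, 96.4% passed 1.5-fold, but only 48.8% of 43 genes set to 0.67 and 56.0% of 50 set to 1.5 did. No doublet caller was run, and barcodes were grouped by the gates alone. Scripts ran in Python 3.11.15 with seed 1, intervals came from scipy 1.17.1, tables from pandas 2.3.3 with numpy 2.4.6, and plots from matplotlib 3.10.9.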

Additional observations from a re-analysis of the deposited data

Results flagged for a closer look

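In 6 cases a member was higher in PEP-619WW in 1 gate of run 1 and lower in others, with counting intervals on opposite sides of 1. No share of all genes with such intervals stands beside this count, so it is not read as particular to the members. *Mki67* was at a PEP-619WW to PEP-WT ratio of 1.23 in the B gate and 1.06 in the plasma gate, and below 1 in the CD4 T, erythroid and Lyz2 gates. In the B gate *Cdc20* was at 1.19, *Cdca3* at 1.10, *Cenpa* at 1.10 and *Cks1b* at 1.05, and all 4 were below 1 in the CD4 T gate. The differences between gates were not tested, since each genotype was 1 library. In barcodes of only the B gate, the ratios were 1.02 for *Mki67*, 1.40 for *Cdc20*, 1.14 for *Cdca3*, 1.28 for *Cenpa* and 1.06 for *Cks1b*. The summed members in those barcodes were below the neutrophil background.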

How the results depend on the processing

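No paired analysis was possible because each genotype was 1 pooled library and the 2 runs carry no replicate numbers. Of the alternatives computed, 126 values stayed close to the main ones, 57 moved and 16 reversed. The log2 ratio of the summed members, in the order CD8 T, CD4 T, B, plasma, erythroid, Lyz2, was -0.24, -0.42, -0.02, -0.18, -0.16 and -0.26. In barcodes of exactly 1 gate it was -0.20, -0.26, 0.042, 0.054, -0.041 and -0.22. Without the 5% of barcodes with the most UMIs it was -0.15, -0.13, 0.079, -0.055, -0.45 and -0.19. As a mean over barcodes it was -0.17, -0.22, 0.15, -0.10, -0.32 and -0.13. With thresholds doubled it was -0.29, -0.32, -0.049, -0.22 and -0.12 in the first 5 gates. Without immunoglobulin and hemoglobin UMIs in the total it was -0.20 in CD8 T, 0.027 in B, -0.13 in plasma and -0.22 in Lyz2. Without *Hmgb2* it was -0.46 in CD4 T, 0.0070 in B and -0.17 in plasma, and without *Hmgb2*, *Smc4*, *Smc2* and *Cks1b* it was -0.47, 0.0097 and -0.17. Relative to the median of all genes it was -0.036 in B and -0.19 in Lyz2. Below 10 UMIs of *Mt2* it was -0.042 in B and -0.36 in erythroid. Without shared barcode sequences, an alternative chosen after seeing the data, it was -0.049 in B and -0.20 in plasma. In run 2 it was -0.88 in CD8 T, -0.29 in CD4 T and -1.07 in Lyz2, and -1.01 in Lyz2 without melanocyte-gene barcodes. The causes were not tested.

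The difference in the share of barcodes with 3 or more members, PEP-619WW minus PEP-WT in percentage points, was 10.1, 12.4, 10.2, 6.45, 0.45 and 2.95. Thinned to 1000 UMIs it was -0.672, -7.48, 2.84, 0.512 and -9.70 in the first 5 gates. Thinned to 2000 UMIs it was -1.07, -4.02, 2.76, 4.26, -0.955 and -1.62. Thinned to 1000 UMIs without *Hmgb2* it was -2.70, -5.48, 2.13, -0.767, -9.32 and -0.766. In run 2 it was -41.1 in CD8 T, -37.0 in CD4 T and -30.4 in Lyz2, the first 2 resting on 28 and 12 PEP-WT barcodes. With thresholds doubled it was 4.13 in CD4 T and 7.82 in B, with 5 or more members 3.49 and 6.49. In B it was 7.59 in barcodes of exactly 1 gate and 6.89 without *Hmgb2*, *Smc4*, *Smc2* and *Cks1b*. At 2-fold, 0 of the 13 lower members of the CD4 T gate remained. The lowest log2 ratio of a member there was -0.87, short of 2-fold, so the values already set this count. No share of all genes past 2-fold stands beside it. In barcodes of exactly 1 gate, members past 1.5-fold were 2 lower in CD8 T, 2 higher and 2 lower in B, 1 higher in plasma and 1 lower in Lyz2, against 0 of each in all barcodes.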
